A study of Mus musculus with 4 samples.

Results

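Flavin-containing monooxygenases (FMOs) were followed in mouse liver RNA through 4 genes, Fmo1, Fmo2, Fmo4 and Fmo5, taken by symbol from a deposited table of 56748 genes. The labelled tissue was liver of NSG mice, an immunodeficient strain without mature B, T and natural killer cells, with the genotype labelled WT in every sample. Of the 4 libraries, 2 came from untreated mice and 2 from mice that received the Jumonji histone demethylase inhibitor JIB-04 by oral gavage, 5 doses of 55 mg/kg at 2 per week (treated liver). Controls received no vehicle, so gavage and compound cannot be told apart. Each library is described as a separate animal, and the spread within a group is therefore a spread between 2 animals. Age and sex are not given in the labels used here.

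FMOs are membrane-bound enzymes of the endoplasmic reticulum that carry a tightly bound flavin, FAD. They take electrons from NADPH directly, without the separate reductase that cytochrome P450s need, and add 1 oxygen atom to soft nucleophiles such as amine nitrogens and sulfur atoms in drugs, diet and metabolites. Fmo1 is a broad amine and sulfur oxygenase that also turns hypotaurine into taurine. Fmo5 acts on ketones rather than amines (Baeyer-Villiger oxidation) and has been tied to metabolic ageing in mice. Fmo2 is best known from lung, and Fmo4 is the least characterised of the 4.

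None of the 4 genes passed the test for a difference between JIB-04 and untreated liver. Fmo5 and Fmo1 were the abundant members, at 81.6 ± 11.3 and 48.9 ± 1.17 FPKM in untreated liver (fragments per kilobase of gene, scaled to library depth, SD, n = 2). Fmo2 averaged 12.8 ± 2.98 FPKM in untreated and 20.6 ± 1.31 in treated liver, the largest relative difference of the 4. Fmo4 was the lowest, at 5.80 ± 0.0423 and 5.25 ± 0.0805 FPKM. In bulk liver RNA, fewer cells of a type and less RNA per cell cannot be told apart. The test was limma across the 10819 genes that averaged 1 FPKM or more, on log2(FPKM + 1), and a gene was called at a Benjamini-Hochberg adjusted p under 0.05. By limma 0 of the 4 members were called, against 2.14% of all tested genes (1.53% higher and 0.619% lower). At an unadjusted p under 0.05 the count was 1 of 4, Fmo2, against 15.5% of tested genes. Voom on reads recovered from the FPKM values also called 1 of 4, again Fmo2, against 4.76% of tested genes. The median log2 change of the 4 members was -0.11, and that of all tested genes was 0.01.

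The 3 FMO promoter windows below are shown for Fmo2 and Fmo5, the members with the largest differences in each direction. They come from RefSeq (GRCm38.p6, a different build from the GRCm39 coordinates of the deposited table) and run from 250 bases before to 50 after an annotated start, 5′ to 3′ on the gene's strand. Capitals mark AGGTCA or AGTTCA, or the reverse complement of either. These are half-sites that nuclear receptors of drug metabolism recognise as part of larger paired elements. Fmo2 has 2 annotated starts on the minus strand, chr1:162898709-162899008 and chr1:162898444-162898743, whose windows overlap. Fmo5 lies on the plus strand, chr3:97628769-97629068.
Fmo2 upstream start: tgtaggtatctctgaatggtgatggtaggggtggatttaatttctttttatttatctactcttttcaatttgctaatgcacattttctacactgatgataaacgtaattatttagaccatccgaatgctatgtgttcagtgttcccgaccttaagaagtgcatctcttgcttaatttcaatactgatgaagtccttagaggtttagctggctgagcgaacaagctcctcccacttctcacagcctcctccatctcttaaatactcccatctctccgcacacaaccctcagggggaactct
Fmo2 downstream start: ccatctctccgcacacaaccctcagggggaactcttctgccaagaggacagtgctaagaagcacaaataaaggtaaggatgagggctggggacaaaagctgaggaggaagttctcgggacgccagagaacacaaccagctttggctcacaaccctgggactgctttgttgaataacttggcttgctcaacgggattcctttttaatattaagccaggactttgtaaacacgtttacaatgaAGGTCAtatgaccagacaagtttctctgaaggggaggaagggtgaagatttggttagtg
Fmo5: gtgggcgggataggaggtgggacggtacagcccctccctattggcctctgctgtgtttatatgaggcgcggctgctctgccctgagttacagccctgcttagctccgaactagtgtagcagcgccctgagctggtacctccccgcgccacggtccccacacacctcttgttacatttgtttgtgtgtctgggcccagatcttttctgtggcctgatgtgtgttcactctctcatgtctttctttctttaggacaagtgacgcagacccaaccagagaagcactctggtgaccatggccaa

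The downstream Fmo2 window held 1 match, AGGTCA, and the upstream Fmo2 window and the Fmo5 window held 0. The Fmo4 window held 1 match, the reverse complement of AGGTCA. Of all 32851 RefSeq windows of this length 27.7% held at least 1 match to either half-site (16.3% AGGTCA, 14.0% AGTTCA), so a single match is common. The table gave windows for 3 of the 4 members, and Fmo1 was not among them. A match describes letters and does not show binding.

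Fmo1, Fmo2 and Fmo4 sit side by side on chromosome 1 on the minus strand, and Fmo5 stands alone on chromosome 3 on the plus strand. In the deposited coordinates (GRCm39) Fmo4 (ENSMUSG00000026692) spans 162620757 to 162641541, Fmo1 (ENSMUSG00000040181) 162657130 to 162694179 and Fmo2 (ENSMUSG00000040170) 162701886 to 162726295. Fmo5 (ENSMUSG00000028088) spans 97536120 to 97562598. No other gene of the table overlaps any of the 4 spans. In GENCODE M21 transcripts, 0 of the 50-base words of Fmo2 and Fmo4 occurred in another gene, against 0.434% for Fmo5 and 7.02% for Fmo1. No FMO gene was among those sharing words with Fmo1 or Fmo5.

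**Figure D1:**
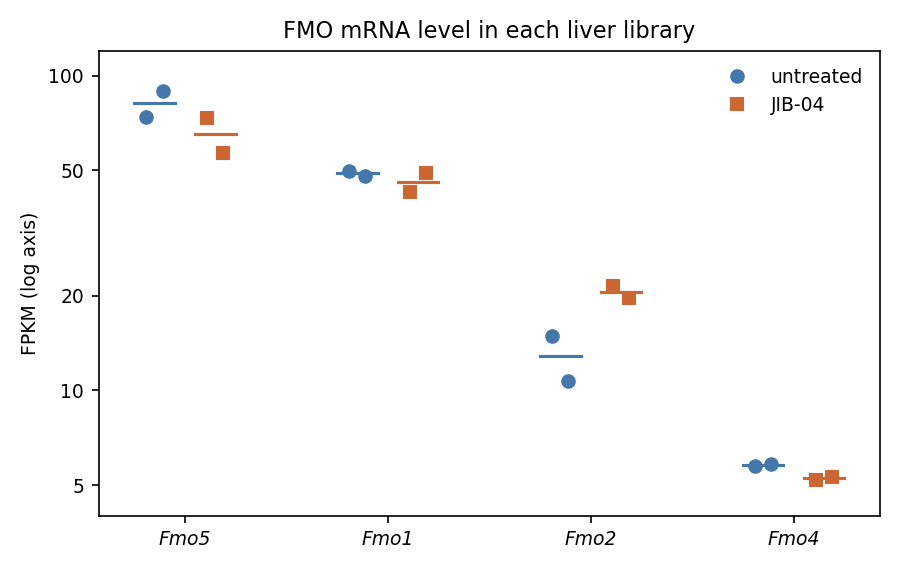
FPKM of each member in each library on a log axis, with circles for the 2 untreated and squares for the 2 treated livers and a bar at each group mean. Fmo2 is the member whose groups stand apart most, at 10.7 and 14.9 against 19.6 and 21.5 FPKM.

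Fmo5 had the highest FPKM of the members in every library. Its values were 73.7 and 89.6 FPKM in untreated 1 and 2, whereas JIB-04 1 and 2 had 73.5 and 57.0. The groups met almost exactly, since untreated 1 and JIB-04 1 differed by less than their counting intervals (72.5 to 74.8 and 72.4 to 74.6, exact Poisson 95%, counting error only). The log2 change was -0.32 (SE 0.17, 95% interval -0.73 to 0.08, limma adjusted p = 0.444). On the fold scale of FPKM + 1 that interval runs from 0.604 to 1.06, so a loss of 2-fold lies outside it. Leaving out 1 library at a time moved the log2 change between -0.50 and -0.14, with no call.

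Fmo1 had nearly the same read count in every library, although JIB-04 1 was sequenced deeper (43283827 reads, at most 36878654 in the others). Fmo1 was counted with 11494 and 11447 reads in untreated 1 and 2, whereas JIB-04 1 and 2 gave 11546 and 11363. In FPKM these were 49.7 and 48.1 against 42.7 and 49.1, and the groups overlapped because JIB-04 2 lay between the untreated libraries. The log2 change was -0.09 (SE 0.13, 95% interval -0.39 to 0.21, limma adjusted p = 0.808), and 65.5% of tested genes had a larger absolute change. The interval in fold terms was 0.761 to 1.16. Without JIB-04 1 the sign turned, with a log2 change of 0.01 (adjusted p = 0.986).

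Fmo2 was at 14.9 and 10.7 FPKM in untreated 1 and 2, whereas JIB-04 1 and 2 had 21.5 and 19.6. Both treated livers lay above both untreated livers. The untreated animals differed from each other beyond counting error, with Poisson intervals of 14.4 to 15.5 and 10.3 to 11.2, while the JIB-04 animals were closer. The ratio of group means was 1.60 and the log2 change 0.66 (SE 0.17, 95% interval 0.26 to 1.06, limma unadjusted p = 0.00646, adjusted p = 0.122). Only 5.52% of tested genes had a larger absolute change. Voom gave a log2 change of 0.68 (95% interval 0.35 to 1.02) and an adjusted p of 0.0234. The adjusted p ran from 0.0234 to 0.425 over 14 alternatives, and voom was the one alternative in which Fmo2 passed. Without untreated 1 the log2 change was 0.88 (adjusted p = 0.0731) and without untreated 2 it was 0.44 (adjusted p = 0.375).

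Fmo4 gave 784 and 816 reads in untreated liver, against 826 and 723 in treated liver. Its FPKM values of 5.77 and 5.83 against 5.20 and 5.31 did not overlap between groups, yet the lowest untreated Poisson bound (5.37) lay below the highest JIB-04 bound (5.71). The log2 change was -0.12 (SE 0.11, 95% interval -0.39 to 0.15, limma adjusted p = 0.697).

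Groups without overlap were found for 3 of the 4 members (Fmo2, Fmo4 and Fmo5), against 46.4% of tested genes. With 2 libraries against 2, the smallest p that exact permutation (two-sided) allows is 0.333. It gave 0.333 for those 3 members and 0.667 for Fmo1, and single genes therefore rest on the moderated limma test.

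**Figure D2:**
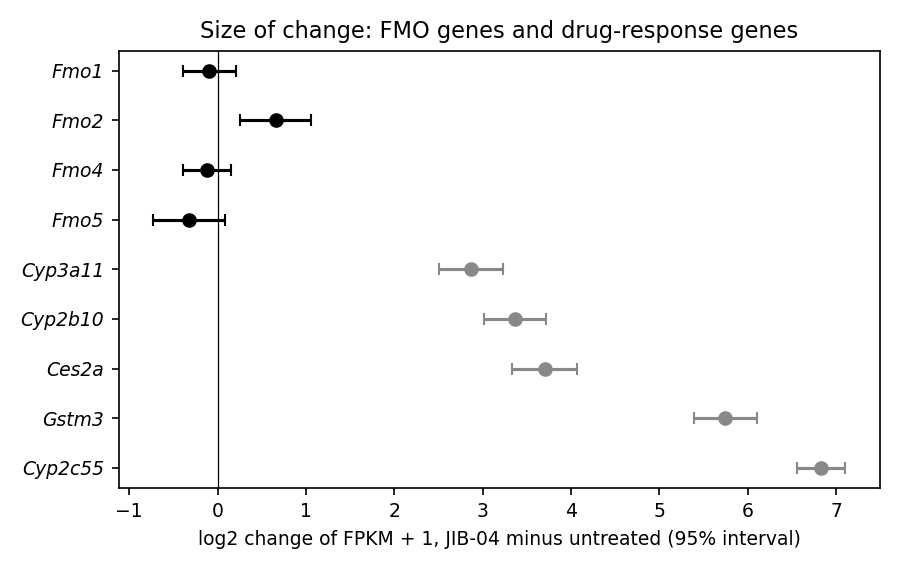
Log2 change of FPKM + 1, JIB-04 minus untreated, with limma 95% intervals (2 libraries a group), for the 4 members in black and for 5 drug-response genes in grey. The members lie between -0.32 and 0.66, while the 5 drug-response genes lie between 2.87 and 6.83.

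The order of levels was Fmo5, Fmo1, Fmo2 and Fmo4 in each of the 4 libraries by FPKM. Their ranges over the 4 libraries (57.0 to 89.6, 42.7 to 49.7, 10.7 to 21.5 and 5.20 to 5.83 FPKM) did not overlap. The place of Fmo1 depended on the gene length used. The deposited lengths were 6304 bases for Fmo1 and 5675 for Fmo5, whereas their longest protein-coding transcripts in GENCODE M21 were 2388 and 5197 bases. Scaled to those transcripts, a choice made after the data were seen, Fmo1 stood at 131, 127, 113 and 130 and Fmo5 at 80.4, 97.8, 80.3 and 62.2, in the order untreated 1, untreated 2, JIB-04 1, JIB-04 2. Fmo1 was then above Fmo5 in all 4. This scaling assigns every read of a gene to its longest coding transcript, so any reads from outside that transcript raise the value. The differences between groups within a gene are not affected by its length, apart from the pseudocount.

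Summed over the 4 members, FPKM was 149 ± 7.15 in untreated and 137 ± 8.43 in treated liver (SD, n = 2). Within that sum Fmo2 held 10.4% and 6.95% in untreated 1 and 2 while JIB-04 1 and 2 held 15.04% and 14.999%. The share of Fmo5 was 51.1% and 58.1% in untreated and 51.4% and 43.5% in treated liver, and the share of Fmo1 ranged from 29.9% to 37.5% with the groups overlapping. These shares rest on the deposited lengths. By longest coding transcript, Fmo1 held the largest share in each library (49.1% to 57.3%), Fmo5 held 33.5% and 39.5% in untreated and 34.9% and 27.5% in treated liver, and Fmo2 held 8.57% and 5.97% against 12.9% and 11.98%. By deposited length the ratio of Fmo2 to Fmo5 was 0.161 ± 0.0587 in untreated and 0.319 ± 0.0372 in treated liver. Those ratios did not overlap (exact two-sided permutation p = 0.333, the smallest possible). This pair joins the members with the largest differences in each direction, so the lack of overlap follows in part from that choice. The ratios of Fmo1 to Fmo5 overlapped between groups.

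Fmo6 and Fmo9, of the same gene family, were at or near 0. Fmo6 was counted with 2 and 1 reads in untreated and 7 and 10 in treated liver, under the filter, and Fmo9 with 0 reads in all 4 libraries, where the limit that a count of 0 allows, taken as 3 reads, was 0.0267 FPKM in untreated 1 (exact Poisson 95% upper bound 0.0328).

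**Figure D3:**
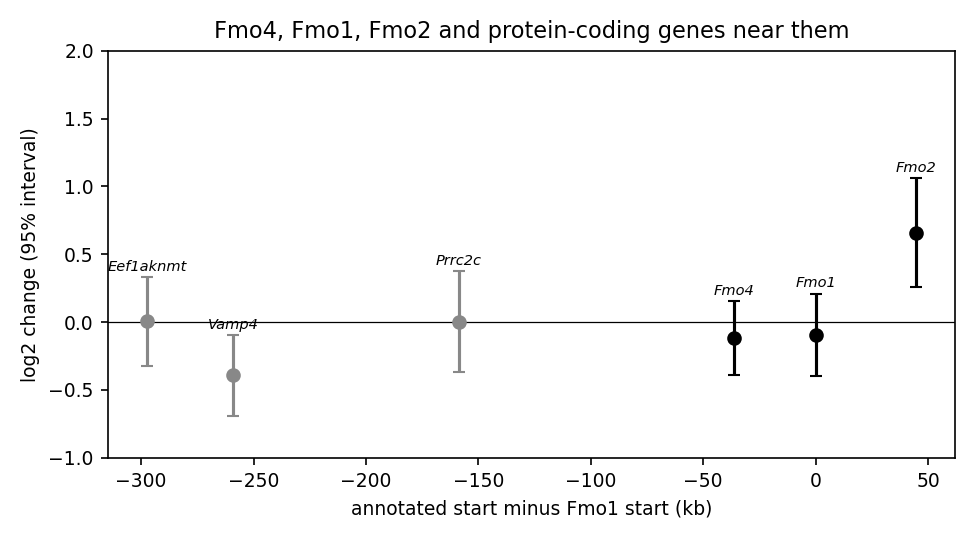
Log2 change with limma 95% intervals for Fmo4, Fmo1 and Fmo2 (black) and for tested protein-coding genes outside the FMO family within 500 kb of Fmo1 (grey), plotted by the distance of their lower annotated coordinate from that of Fmo1 in kb. Fmo2 lies at 0.66, and Fmo1 (-0.09) and Fmo4 (-0.12) lie near 0.

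Outside the FMO family the table lists 17 genes within 500 kb of Fmo1, of which 5 passed the filter on low values and 8 were at 0 in all libraries. Limma called 0 of those 5 (2.14% of all tested genes). At an unadjusted p under 0.05 there was 1, Vamp4 (15.5% of all tested genes), and voom called 0 (4.76%). Vamp4, a vesicle fusion protein gene 230.5 kb from Fmo1, averaged 3.14 ± 0.157 and 2.15 ± 0.0637 FPKM (limma adjusted p = 0.190). Near Fmo5, 5 of 20 neighbouring genes were tested, and limma called 0. There too 1 was at an unadjusted p under 0.05 (Notch2), beside 15.5% of all tested genes, and voom called 0. The lowest p there belonged to the receptor gene Notch2, at 4.41 ± 0.205 and 3.21 ± 0.739 FPKM (adjusted p = 0.313). The median log2 change of tested neighbours was 0.0042 for Fmo1 and -0.06 for Fmo5.

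Genes whose pattern over the 4 libraries was nearest to each member were ranked among 9651 protein-coding genes by Euclidean distance of log2(FPKM + 1), centred on the untreated mean. For Fmo2 these were Stmn1, a microtubule regulator (distance 0.0974), Enpp3, an ectonucleotidase (0.101), and Ybx3, a Y-box nucleic acid binding protein (0.112), where the median gene stood at 1.01. Stmn1 averaged 1.72 and 3.12 FPKM, Enpp3 5.07 and 8.91, and Ybx3 6.43 and 10.7. None of them passed the limma test (adjusted p = 0.204, 0.111 and 0.0759), while voom called Enpp3 (adjusted p = 0.0158) and Ybx3 (0.0187) and not Stmn1 (0.153). The genes were picked from 9651 for likeness to Fmo2 in these 4 libraries, so similar test results follow from the choice. For Fmo5 the nearest genes were the threonyl-tRNA synthetase gene Tars (0.0427), Rell1 (0.0526) and Gpr155 (0.0811). For Fmo1 they were Tmem25, Hdgfl2 and Gchfr (0.0120 to 0.0149), and for Fmo4 Oaz1, Vapb and Cnr2 (0.0283 to 0.0295). The last 6 are genes with small differences between groups.

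Drug-metabolism genes known from earlier results of these data to be much higher with JIB-04 set the scale for the FMO values. Cyp3a11, a P450 of drug oxidation, had a log2 change of 2.87, Cyp2b10 3.36, the carboxylesterase Ces2a 3.71, the glutathione transferase Gstm3 5.74 and Cyp2c55 6.83. All 5 were called higher (limma adjusted p from 2.04e-06 to 0.000284). The upper bounds of the 95% intervals of Fmo1, Fmo4 and Fmo5 were 0.21, 0.15 and 0.08, and that of Fmo2 was 1.06. The 5 comparison genes were picked for their size, so this is a description and not a test.

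Cofactor supply showed 1 called gene. Flad1, which encodes FAD synthase, the enzyme that makes the FMO flavin, was at 7.28 and 8.46 FPKM in untreated and 13.3 and 15.9 in treated liver. It rose by 0.81 on the log2 scale (SE 0.14, limma adjusted p = 0.0407), and the call was lost without each single library in turn (adjusted p from 0.0742 to 0.220) and with quantile normalization (0.0525), neither trend nor robust moderation (0.0648) or no filter (0.270). Rfk, the riboflavin kinase of the preceding step, averaged 26.0 ± 0.965 and 21.1 ± 0.973 FPKM (adjusted p = 0.302). The 3 tested genes of FAD supply were Flad1, Rfk and the carrier gene Slc25a32. Slc52a2 and Slc52a3, the listed genes of riboflavin uptake, were under the filter and not tested. Of the 3 tested, 1 rose and 0 fell (all tested genes: 1.53% and 0.619%), with a median log2 change of -0.01. At an unadjusted p under 0.05 there were 2, Flad1 higher and Rfk lower (15.5% of all tested genes), and voom called 1, Flad1 (4.76%). Of 13 genes listed around the supply of NADPH, the electron donor of FMOs, limma called 0, though not all of them make NADPH themselves. At an unadjusted p under 0.05 the count was 0, and voom called 0. Their median was 0.14, and H6pd, the hexose dehydrogenase inside the endoplasmic reticulum, averaged 58.7 ± 9.46 and 73.8 ± 0.956 FPKM (adjusted p = 0.342). Aldh1l1, a folate enzyme that yields NADPH, averaged 214 ± 35.4 and 172 ± 7.53 (adjusted p = 0.412).

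A list of electron transfer genes, among them the P450 reductase that FMOs do not need, had 7 tested genes. All 7 had a positive log2 change, as did 51.4% of tested genes. Limma called 0 of the 7, with 4 at an unadjusted p under 0.05 (15.5% of all tested genes), and voom called 2 (4.76%). Por, the P450 reductase, was at 207 and 149 FPKM in untreated and 349 and 291 in treated liver (limma adjusted p = 0.0889, voom 0.0135). Pgrmc1, a heme-binding partner of P450s, was at 624 and 639 against 983 and 1085 (limma adjusted p = 0.0606, voom 0.0193). The median log2 change of these 7 genes was 0.39.

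**Figure D4:**
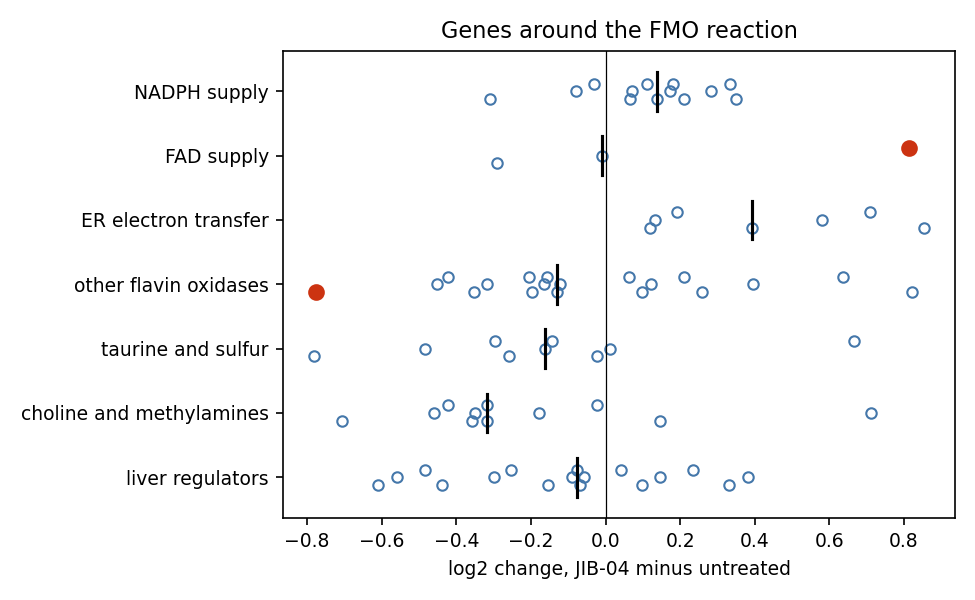
Log2 change of each tested gene in 7 lists of genes around the FMO reaction, with open circles for genes not called, filled circles for the 2 called genes and a bar at the list median. The filled circles are Flad1 (0.81, FAD supply) and Hao1 (-0.78, other flavin oxidases).

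Other flavin enzymes had 19 tested members. Most oxidize amines, drugs or small metabolites, but Nqo1 and Nqo2 are quinone reductases. Of the 19, 0 rose and 1 fell (all tested genes: 1.53% and 0.619%). At an unadjusted p under 0.05 there were 3 higher and 4 lower (all tested genes: 15.5% in either direction), and voom called 2, Hao1 and Aox1 (all tested genes: 4.76%). Sardh and Dmgdh, among the lower ones, are counted again in the choline and methylamine list below. The gene that fell was Hao1, the peroxisomal glycolate oxidase, from 106 and 97.7 to 59.7 and 58.1 FPKM (log2 change -0.78, limma adjusted p = 0.0305). Its call was lost without each library in turn (adjusted p from 0.0748 to 0.192) and with no filter (0.211). Aox1, an aldehyde oxidase, averaged 5.80 ± 1.37 and 10.9 ± 0.946 FPKM (limma adjusted p = 0.0621, voom 0.00968). The median of the 19 was -0.13.

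Metabolites handled by FMOs were followed through 2 more lists. Of 9 tested genes of taurine synthesis and cysteine sulfur metabolism limma called 0. At an unadjusted p under 0.05 there were 1 higher and 2 lower (15.5% of all tested genes in either direction), while voom called 2, Cbs and Cth (4.76%). The median log2 change of the 9 was -0.16, and 2 had a positive change (51.4% of all tested genes). Cbs, cystathionine beta-synthase, was at 48.3 and 56.5 FPKM in untreated and 27.5 and 32.6 in treated liver (limma adjusted p = 0.0504, voom 0.00688). Cth, which makes cysteine in the next step, was at 95.2 and 118 against 176 and 162 (limma adjusted p = 0.0833, voom 0.0254). Of 11 tested genes of choline oxidation and methylamine handling limma also called 0. The median log2 change of the 11 was -0.32, and 2 had a positive change (51.4% of all tested genes). At an unadjusted p under 0.05 there were 1 higher and 5 lower (15.5% of all tested genes in either direction), and voom called 2 (4.76%). The voom calls were Chdh, choline dehydrogenase, at 24.0 ± 1.05 and 40.3 ± 7.06 FPKM (limma adjusted p = 0.0709, voom 0.0116), and Gnmt, the glycine methyltransferase, at 957 ± 165 and 582 ± 19.7 (0.0968, voom 0.0215).

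Of 17 transcription factors of liver drug metabolism genes limma called 0, with 4 at an unadjusted p under 0.05 and 1 by voom, beside 15.5% and 4.76% of all tested genes. The lowest p and the voom call were those of Cebpa, at 157 ± 16.9 and 106 ± 2.62 FPKM (limma adjusted p = 0.101, voom 0.0349), followed by Foxa1 at 5.12 ± 0.130 and 7.004 ± 1.003 (0.233). The median of the 17 was -0.08.

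Defining hepatocyte genes were present at high levels in all 4 libraries. The 8 hepatocyte markers summed to 66179 and 62941 FPKM in untreated and 47158 and 39301 in treated liver. Alb made up most of these sums, at 46658 and 46858 against 31689 and 22910 FPKM. Of the 8 markers, 1 (Fgb) had a positive log2 change. Limma called 0 of the 8 (2.14% of all tested genes). At an unadjusted p under 0.05 there was 1, Alb (15.5%), and voom called 0 (4.76%). Kidney markers were at 0 in all libraries (5 of 5), and 5 lung epithelial markers, checked because Fmo2 is a lung gene, summed to between 0.964 and 1.97 FPKM. Stellate and fibroblast markers summed to 114 and 87.1 FPKM in untreated and 86.9 and 88.0 in treated liver, endothelial markers to 119 and 93.9 against 96.2 and 101, and macrophage markers to 322 and 274 against 245 and 300. Bile duct markers summed to 44.5 and 38.7 against 39.9 and 47.6, and B, T and natural killer cell markers to at most 0.752. Red cell transcripts summed to 2952 and 1845 in untreated and 654 and 1782 in treated liver, with the lowest sum in JIB-04 1. Limma called 0 of the 40 tested markers. At an unadjusted p under 0.05 there were 3 (Alb, the stellate gene Lrat and the globin gene Hba-a2), beside 15.5% of all tested genes. Voom called 2 of the 40, beside 4.76% of all tested genes. They were Lrat (5.25 ± 0.135 and 3.07 ± 0.0499 FPKM, voom adjusted p = 0.00890) and Hba-a2 (11.6 ± 4.74 and 2.38 ± 1.49, 0.0192). Hba-a2 shares sequence with the other alpha globin gene. The part of cell composition in the FMO values was not tested.

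**Figure D5:**
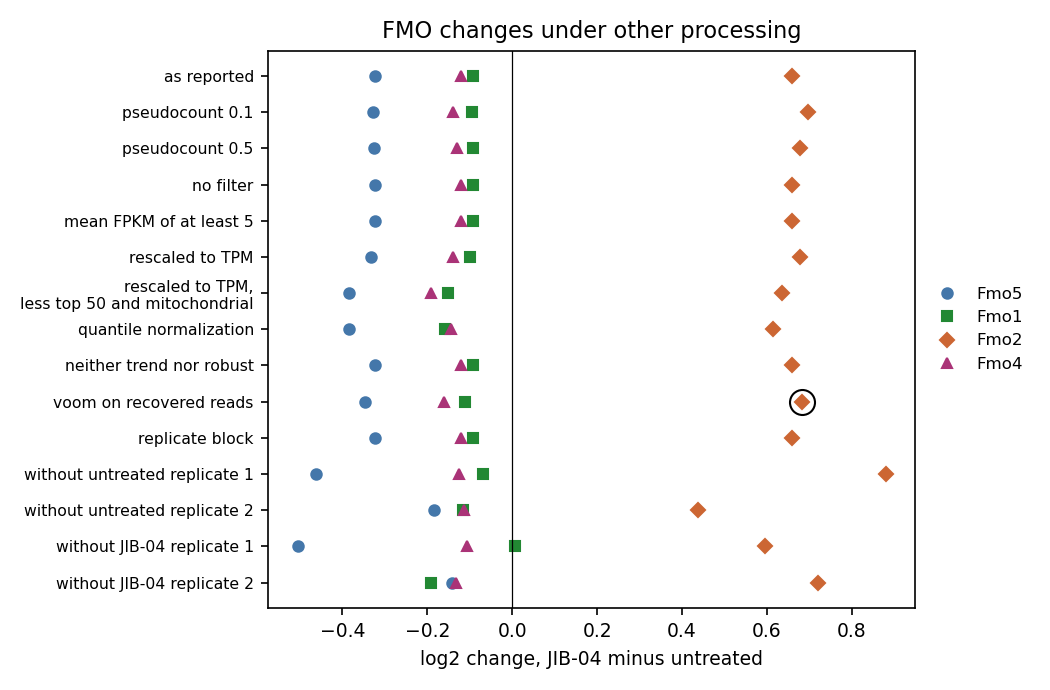
Log2 change of each member under the analysis as reported and 14 alternatives, with a ring around a value whose adjusted p was under 0.05. Fmo2 lies between 0.44 and 0.88 throughout and is ringed once, with voom on recovered reads.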

How the data were processed

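Liver RNA of 4 mice was sequenced. The authors deposited 1 table of FPKM values per gene and library, with gene length, coordinates and biotype, per the file headers. The submitters' processing notes name GRCm39 (mm39) as genome build. Not given in the sources used here are aligner, counter, annotation release and strandedness. FPKM times gene length was a whole multiple of 1 step for 100% of values (tolerance 0.01), which gave 36469514 to 43283827 reads per library and 20178 to 21465 genes above 0. For a 1 kb gene, 1 read equalled 0.0233 to 0.0273 FPKM. Counting intervals from these reads cover counting error only.

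Groups were taken from the sample titles. Groups were compared in R 4.3.3 with the limma package, version 3.58.1 (two-sided, variance moderated with trend and robust options, leaving 2 residual degrees of freedom per gene), on log2(FPKM + 1), over the 10819 genes that averaged 1 FPKM or more, with Benjamini-Hochberg adjustment over all of them. The pseudocount of 1 understates changes of low genes. The script was tested on simulated data, in 5 rounds over 10819 genes. In each round 200 genes were changed by 1.5-, 2-, 4- or 8-fold, and genes of similar level shared a variance. The rates that follow depend on these settings and need not hold for the real data. Of 824 calls 96 were false (11.7%), a larger share than the adjusted p threshold is set to allow. Changes of 1.5-fold were recovered in 27.3% of cases and of 2-fold in 84.6%. Those of 4-fold and 8-fold were recovered in 100%. Calls near the threshold are therefore uncertain, and a gene left uncalled can still differ by 1.5-fold. Other settings tried were a pseudocount of 0.1 or 0.5, omission of the filter, a minimum mean of 5, TPM (over all genes, or leaving out mitochondrial genes and the top 50), quantile normalization, limma without trend and robust moderation, voom on recovered reads, a replicate block, and each library left out. Genes named were the members with Fmo6 and Fmo9, per list the called genes and the 2 of lowest p, neighbours outside the family within 500 kb, the 3 nearest patterns per member, and 5 drug-response genes. A result that this rule would name is not reported here. Voom calls of list genes were named in addition, after their values were seen. The members and lists were chosen with earlier results of these data known.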

Additional observations from a re-analysis of the deposited data

How the results depend on the processing

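The 4 members kept their side of the threshold in all 14 alternatives, except Fmo2 with voom on recovered reads (log2 change 0.68, adjusted p = 0.0234). Directions also held, except for Fmo1 without JIB-04 1 (0.005859). The cause was not tested. Leaving out 1 library gave ranges of -0.19 to 0.01 for Fmo1, 0.44 to 0.88 for Fmo2, -0.13 to -0.11 for Fmo4 and -0.50 to -0.14 for Fmo5. Counts moved more. Genes called higher numbered 165 as reported, 20 without the filter and 309 with voom, and 22 to 107 without 1 library. Genes called lower numbered 67, against 0 without the filter, 206 with voom and 121 with the replicate block, and 1 to 54 without 1 library. Of 77 tested list genes 2 were called, beside 2.14% of all tested genes, and voom called 10, beside 4.76%. Without the filter 0 were called. At a mean FPKM of at least 5 there were 6 (all tested genes: 157 higher and 70 lower). With neither trend nor robust moderation 1 was called (all tested genes: 111 higher and 45 lower), and with the replicate block 6 (236 higher and 121 lower). With 1 library left, its spread was assumed to be that of the other group.

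TPM computed after leaving out mitochondrial genes and the top 50 moved the split of calls to 142 higher and 92 lower. With the replicate number as a block, Fmo1, Fmo2, Fmo4 and Fmo5 stayed uncalled, Fmo2 at an adjusted p of 0.0592. The replicate numbers carry no pairing in the labels, and deviations of same-numbered libraries correlated at -0.05 over 10819 genes. The mean ratio of Fmo1 to Fmo5 was 0.606 in untreated and 0.722 in treated liver by deposited length, and 1.46 and 1.74 by longest coding transcript. With 2 animals a group, the intervals above limit what can be seen, and depth limits Fmo6 (1 to 10 reads).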
